A study of Mus musculus with 9 samples.

Results

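Cholesterol synthesis, uptake and SREBP2 control were followed in mouse liver through 31 genes chosen by name. Of these, 19 encode enzymes of cholesterol synthesis and 12 encode proteins that control the pathway or move, store and export sterols. A row with the gene's own known transcripts was found for 29 of the 31, 18 enzymes and 11 of the other genes, among 26345 named entries with a known transcript in a table of 52151 entries. Not every step of the pathway is represented by the 31 genes, and steps without a gene among them were not analysed here.

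Cholesterol is built from acetyl-CoA through mevalonate, the isoprenoid pyrophosphates, squalene and lanosterol, and the last steps trim lanosterol to cholesterol. Most genes of the pathway are targets of the transcription factor SREBP2. When membranes of the endoplasmic reticulum are low in sterol, the escort protein SCAP carries SREBP2 to the Golgi to be cleaved, and when sterol is plentiful the INSIG proteins hold SCAP back. Oxysterols act in the other direction through the LXR receptors, which raise exporters of cholesterol and lower the uptake of lipoproteins. In the liver the newly made sterol also feeds bile acids, lipoproteins and biliary secretion.

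Whole-liver RNA was sequenced from 3 groups of 3 libraries after 5 weeks of feeding. Pair-fed mice (PF) received an isocaloric control liquid diet, alcohol-fed mice (AF) received the Lieber-DeCarli alcohol diet, and the third group (AF with MNA) was alcohol-fed and injected intraperitoneally each day with MNA at 50 mg/kg. The labels do not spell out MNA and name no vehicle injection in PF or AF, so the compound and the injection cannot be told apart. All mice are labelled as 8 weeks old, and the methods describe male C57BL/6J mice that had fasted before death in all groups they cover, PF and AF. The strain label reads C57BL/6 for every PF and AF library but C57BL/7, C57BL/8 and C57BL/9 for AF with MNA replicates 1, 2 and 3, and these labels were taken no further.

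Levels are FPKM, a fragment count divided by transcript length and by the mapped fragments of the library, with 1 library per replicate. No counts are given for genes. In lncRNA transcripts above 1 FPKM, the median coverage per FPKM was 5.84 to 8.30 reads over each base across the libraries. The depth behind the gene levels themselves is not given. AF replicate 3 and AF with MNA replicate 1 stood apart in the summed level of lncRNA transcripts inside introns, 9433 and 8934 FPKM against 2477 to 4937 FPKM in the other 7 libraries, and member counts at each limit are given with and without them. All 5 hepatocyte markers (Alb, Apoa1, Hnf4a, Cps1 and Tat) were found in every library, with a summed level of 12767 to 17948 FPKM in PF, 12855 to 18584 FPKM in AF and 16317 to 19270 FPKM in AF with MNA. The 5 Kupffer cell markers summed to 56.5 to 68.8 FPKM in PF, 44.8 to 82.4 FPKM in AF and 56.8 to 74.4 FPKM in AF with MNA. The 5 markers of sinusoidal endothelium summed to 19.7 to 24.3 FPKM in PF, 24.9 to 36.2 FPKM in AF and 30.4 to 33.8 FPKM in AF with MNA, so their summed level was higher in every alcohol-fed library. Stellate cell markers summed to 27.5 to 28.0, 24.9 to 34.8 and 25.9 to 38.3 FPKM in PF, AF and AF with MNA, cholangiocyte markers to 3.27 to 4.31, 4.86 to 9.12 and 3.34 to 6.33 FPKM, and neutrophil markers to 0.17 to 0.75, 0.73 to 2.03 and 0.27 to 0.73 FPKM. A sum can hide single markers. The endothelial marker Clec4g lay below every PF library in AF replicate 3, and Alb made up most of the hepatocyte sum. The part of these cells in the results was not tested. In RNA of whole tissue, fewer cells of a type and less RNA per cell cannot be told apart.

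Groups were compared as log2(FPKM + 1) with limma over every named known gene whose mean level reached 0.5 FPKM. A gene is said to have risen or fallen where the unadjusted p was under 0.05 and the log2 ratio between the groups' mean FPKMs was above 1 or below -1, limits that the study's methods give for lncRNAs tested in Ballgown and that are applied here to genes tested in limma. The Benjamini-Hochberg adjusted p is given beside each call. Values are mean ± SD of 3 libraries. All 29 genes with their own entry passed the level filter in each comparison.

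In AF the cholesterol synthesis pathway was lower at several of its steps. Hmgcs1, Mvd, Msmo1, Nsdhl and the sterol carrier Stard4 fell to between 18.2% and 38.6% of their mean PF level, and no member rose. The 5 that fell are 17.2% of the 29, against 2.35% of the 12268 genes tested that fell, and 0 rose against a background of 1.95%. In a model without limma's moderation and with a library-size covariate, 1 of the 5 calls was left, Nsdhl (3.45% of the 29, against 1.42% of all genes). At an unadjusted p under 0.05 without a fold limit, 9 of 29 (31%) were lower in AF against 6.58% of all genes, adding Acat2, Fdps, Fdft1 and Insig1, and 1 (3.45%), Abcg8, was higher against 5.1%. No member had an adjusted p under 0.05 in limma, a level that 0.326% of all genes reached, and the lowest adjusted p was 0.0677, for Nsdhl. No overlap between PF and AF libraries was seen in 9 members that were lower in AF (31%, background 10.1%) and in 3 that were higher (10.3%, background 8.18%), so the share of separated higher members lay near the background. The median log2 ratio of AF to PF was -0.71 for the 18 enzymes, -0.18 for the 11 other members and -0.03 for all genes tested. Of the 18 enzymes, 16 had a log2 ratio below 0, as did 6 of the 11 others and 53.5% of all genes.

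How many members fell depended on single libraries. Without AF replicate 3 the count was 11 (37.9%), adding Acat2, Idi1, Fdps, Lss, Cyp51 and Insig1 to the same 5, and the share of all genes that fell also went up, to 3.97%. In that fit 13 members (44.8%) were lower at an unadjusted p under 0.05 against 9.44% of all genes and 1 was higher against 5.05%, while 14 (48.3%) lay below PF without overlap against 21.1% and 3 lay above against 12.3%. No member had an adjusted p under 0.05 in limma, against 0.23% of all genes. Without PF replicate 3 the count was 9 (31%, background 2.17%), adding Idi1, Fdps, Sqle and Insig1. Without PF replicate 1 it was 4 (13.8%, background 2.06%), because Hmgcs1 no longer passed. In the remaining 3 fits 5 or 6 fell, with backgrounds of 2.15% to 2.45%. Mvd, Msmo1, Nsdhl and Stard4 passed in all 6 limma fits that left out a library.

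**Figure D1:**
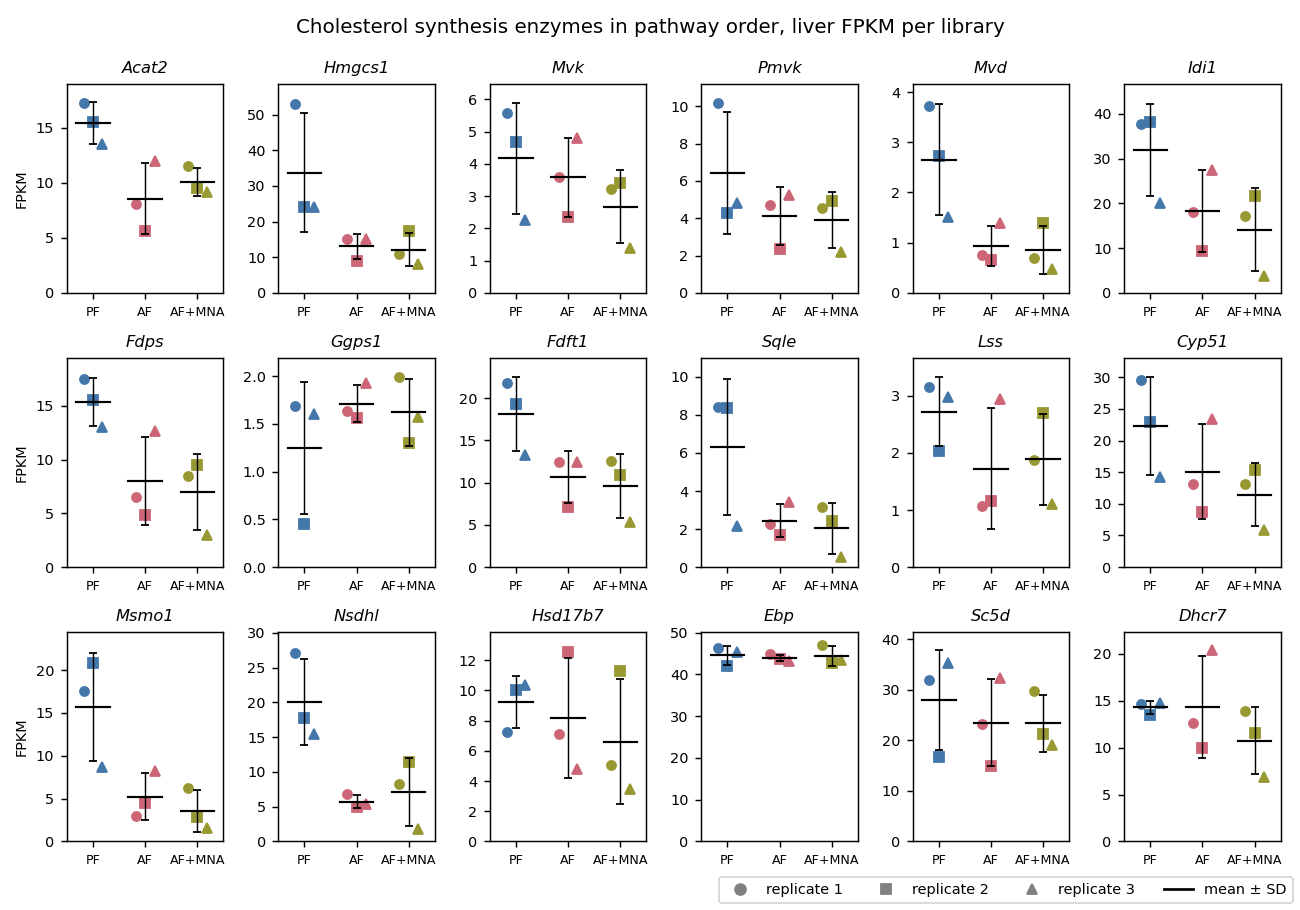
Level in FPKM (vertical axis, each panel with its own scale from 0) of the 18 cholesterol synthesis enzymes in pathway order, in the 3 PF, 3 AF and 3 AF with MNA libraries. Marker shapes give the replicate number and bars the mean ± SD. No alcohol-fed library reaches the lowest PF library for Acat2, Hmgcs1, Mvd, Fdps, Fdft1, Msmo1 or Nsdhl, while Ebp lies near 44 FPKM in all groups.

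The pathway opens with Acat2 and Hmgcs1. Acat2 here is the cytosolic thiolase that joins acetyl-CoA units to acetoacetyl-CoA, and not the esterifying enzyme Soat2 that is also known by that alias. Its level was 17.3, 15.5 and 13.5 FPKM in PF, 8.10, 5.58 and 12.0 FPKM in AF, and 11.5, 9.53 and 9.18 FPKM in AF with MNA. Every alcohol-fed library lay below every PF library. The log2 ratio to PF was -0.85 in AF (limma adjusted p = 0.313) and -0.61 in AF with MNA (adjusted p = 0.177), short of the fold limit. The entry also holds transcripts of Acat3 and Mrpl18, so its level is not of Acat2 alone. The study reported a named Acat2 transcript as lower in AF liver, in sequencing and by RT-PCR, and in cultured hepatocytes given ethanol. That is a different measure from the level of this merged entry.

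Hmgcs1, the cytosolic synthase that makes HMG-CoA, lies at chr13:119690379-119708260, plus strand of GRCm38 in the GENCODE M21 annotation. It had 53.1, 24.1 and 24.1 FPKM in PF, 15.1, 8.89 and 15.1 FPKM in AF, and 11, 17.3 and 8.14 FPKM in AF with MNA. PF replicate 1 stood well above the other PF libraries, and all PF libraries lay above all 6 alcohol-fed libraries. Hmgcs1 fell in AF, with a log2 ratio of -1.37 (limma adjusted p = 0.288), and in AF with MNA, with -1.48 (adjusted p = 0.235). Without PF replicate 1 neither call held, since the log2 ratios of -0.89 and -0.99 lay inside the fold limit.

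Promoter windows from RefSeq, 250 bases before to 50 bases after a start site on GRCm38.p6, were given for 26 of the 31 members. They were searched on both strands for TCACNCCA, a core of the sterol regulatory element that SREBP binds, for CCAAT, the box bound by NF-Y, and for GGGCGG, the GC box bound by Sp1, and any overlap between matches was allowed. The sterol core was in the windows of 3 of 26 members (11.5%), Hmgcs1, Msmo1 and Srebf2, and in those of 4.97% of all genes. CCAAT was in 22 of 26 (84.6%) against 41.1% of all genes. GGGCGG was in 21 of 26 (80.8%) against 38.2% of all genes. A window was also given for 8290 of the genes tested in AF against PF, and 4.67% of these held the sterol core, 42.5% CCAAT and 67.2% GGGCGG, against 3, 21 and 20 of the 24 tested members with a window. Matches are letters in a window and not measured binding sites. The 3 windows with the sterol core are shown with the match in capitals, which starts 137, 177 and 162 bases before the start site in Hmgcs1, Msmo1 and Srebf2.
Hmgcs1 promoter, chr13:119690101-119690400, plus strand: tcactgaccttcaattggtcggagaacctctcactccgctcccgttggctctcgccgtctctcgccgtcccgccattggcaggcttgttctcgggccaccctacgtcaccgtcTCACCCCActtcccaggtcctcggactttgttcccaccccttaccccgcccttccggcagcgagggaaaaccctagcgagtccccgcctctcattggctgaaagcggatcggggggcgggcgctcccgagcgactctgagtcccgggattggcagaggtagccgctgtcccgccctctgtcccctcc
Msmo1 promoter, chr8:64733529-64733828, minus strand: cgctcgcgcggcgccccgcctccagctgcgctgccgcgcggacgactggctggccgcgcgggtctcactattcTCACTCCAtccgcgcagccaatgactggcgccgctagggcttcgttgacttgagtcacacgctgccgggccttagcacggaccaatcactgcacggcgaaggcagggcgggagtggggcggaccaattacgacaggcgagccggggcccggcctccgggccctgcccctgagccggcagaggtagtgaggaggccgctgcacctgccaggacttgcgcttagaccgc
Srebf2 promoter, chr15:82147019-82147318, plus strand: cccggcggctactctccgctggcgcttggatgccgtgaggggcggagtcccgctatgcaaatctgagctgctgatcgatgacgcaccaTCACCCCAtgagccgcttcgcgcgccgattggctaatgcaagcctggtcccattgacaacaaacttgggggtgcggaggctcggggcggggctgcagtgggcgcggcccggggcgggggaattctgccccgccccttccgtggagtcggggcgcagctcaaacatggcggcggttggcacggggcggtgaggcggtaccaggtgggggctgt

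Mevalonate is turned into the isoprenoid pyrophosphates by a run of kinases, a decarboxylase, an isomerase and prenyl synthases. Of the 6 members here Mvd fell in AF, and Mvd and Fdps fell in AF with MNA, the Fdps call in 3 of the 6 fits that left out a library. The kinases did not pass. Mvk, which phosphorylates mevalonate, was at 4.17 ± 1.73 FPKM in PF, 3.58 ± 1.23 FPKM in AF and 2.68 ± 1.13 FPKM in AF with MNA. Pmvk, which adds the next phosphate, was at 6.43 ± 3.26 FPKM in PF, 4.10 ± 1.55 FPKM in AF and 3.90 ± 1.48 FPKM in AF with MNA, with its highest level in PF replicate 1 and the groups overlapping.

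Mvd, the decarboxylase that yields isopentenyl pyrophosphate (chr8:122433601-122443422, minus strand), had 3.73, 2.72 and 1.52 FPKM in PF, 0.76, 0.65 and 1.40 FPKM in AF, and 0.69, 1.40 and 0.47 FPKM in AF with MNA. All alcohol-fed libraries lay below the lowest PF library, although the PF libraries themselves spanned more than the alcohol-fed ones. Mvd stood at a log2 ratio to PF of -1.5 in AF (limma adjusted p = 0.301) and -1.64 in AF with MNA (adjusted p = 0.246). At levels this low the pseudocount shrinks the fitted difference, and on log2(FPKM + 1) it was -0.89 and -0.96, inside the fold limit.

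Idi1, the isomerase that makes dimethylallyl pyrophosphate, was at 31.9 ± 10.2 FPKM in PF, 18.3 ± 9.12 FPKM in AF and 14.1 ± 9.33 FPKM in AF with MNA. The log2 ratios of -0.80 in AF (limma adjusted p = 0.502) and -1.18 in AF with MNA (adjusted p = 0.399) did not pass, and AF replicate 3 at 27.5 FPKM lay among the PF libraries. AF with MNA replicate 3 had the lowest Idi1 level of all, 3.67 FPKM. Idi1 passed in AF without PF replicate 3 or AF replicate 3, at -1.05 and -1.22, and in AF with MNA without AF with MNA replicate 2, at -1.62. With the replicate number as a block in the fit, it also passed in AF with MNA.

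Fdps, farnesyl pyrophosphate synthase, had 17.5, 15.6 and 13.0 FPKM in PF, 6.49, 4.86 and 12.6 FPKM in AF, and 8.52, 9.53 and 2.99 FPKM in AF with MNA. The groups did not overlap with PF, although AF replicate 3 came close to the lowest PF library. Relative to PF the log2 ratio was -0.94 in AF, just inside the fold limit (limma adjusted p = 0.345), and -1.13 in AF with MNA, just outside it (adjusted p = 0.276). That call was lost without PF replicate 1, PF replicate 2 or AF with MNA replicate 3, at log2 ratios of -1.03, -1.12 and -0.77. The Fdps entry also holds transcripts of Rusc1 and Gm43738. Ggps1, which makes geranylgeranyl pyrophosphate for protein prenylation and so leads away from cholesterol, was the enzyme with the highest AF to PF ratio, at 1.25 ± 0.691 FPKM in PF, 1.71 ± 0.195 FPKM in AF and 1.62 ± 0.348 FPKM in AF with MNA. Its PF libraries held 1.69, 0.45 and 1.60 FPKM, and the groups overlapped (limma adjusted p = 0.67 in AF).

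From farnesyl pyrophosphate, squalene synthase, squalene epoxidase and lanosterol synthase lead to the first sterol. None of these passed both limits in either comparison with PF in the main limma fit of all 6 libraries. Fdft1, squalene synthase and the committed step to sterols, had 21.8, 19.3 and 13.2 FPKM in PF, 12.4, 7.07 and 12.5 FPKM in AF, and 12.6, 10.9 and 5.39 FPKM in AF with MNA. All alcohol-fed libraries lay below the lowest PF library. As a log2 ratio to PF it was -0.77 in AF (limma adjusted p = 0.386) and -0.91 in AF with MNA (adjusted p = 0.305). In AF with MNA it passed without PF replicate 3, AF with MNA replicate 1 or AF with MNA replicate 2, at -1.10, -1.16 and -1.01.

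Sqle, squalene epoxidase and a rate-setting enzyme of the pathway, had 8.44, 8.34 and 2.18 FPKM in PF, 2.27, 1.68 and 3.40 FPKM in AF, and 3.16, 2.41 and 0.55 FPKM in AF with MNA. PF replicates 1 and 2 lay well above all other libraries, but PF replicate 3 lay within the range of AF. The log2 ratio of -1.37 in AF was as large as that of Hmgcs1, yet with this spread it did not pass (limma adjusted p = 0.478). In AF with MNA it was -1.63 (adjusted p = 0.385). Without PF replicate 3, Sqle passed in both comparisons, with log2 ratios of -1.78 and -2.04. It also passed in AF with MNA with the replicate number as a block, or with all 9 libraries in the fit. Lss, lanosterol synthase, was at 2.72 ± 0.598 FPKM in PF, 1.72 ± 1.05 FPKM in AF and 1.89 ± 0.795 FPKM in AF with MNA. AF replicate 3 held 2.94 FPKM of Lss, level with PF, while AF replicates 1 and 2 held 1.07 and 1.16 FPKM.

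Lanosterol is demethylated, reduced and isomerised to cholesterol by the last enzymes, 8 of them members and 7 with their own entry. Msmo1 and Nsdhl, which act one after the other to strip methyl groups from the sterol ring, fell in both alcohol-fed groups, although the Nsdhl call in AF with MNA depended on single PF libraries, and the 5 others with an entry did not pass. Cyp51, the cytochrome that removes the first methyl group, was at 22.2 ± 7.72 FPKM in PF, 15.1 ± 7.52 FPKM in AF and 11.4 ± 5.02 FPKM in AF with MNA, with log2 ratios of -0.56 in AF (limma adjusted p = 0.62) and -0.96 in AF with MNA (adjusted p = 0.364). It passed in AF without AF replicate 3, at -1.03, and in AF with MNA without PF replicate 3 or AF with MNA replicate 2, at -1.2 and -1.23.

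Msmo1, the methylsterol monooxygenase (chr8:64718139-64733792, minus strand), had 17.6, 20.8 and 8.66 FPKM in PF, 3.01, 4.48 and 8.23 FPKM in AF, and 6.22, 2.86 and 1.57 FPKM in AF with MNA. The highest alcohol-fed library, AF replicate 3, lay just under PF replicate 3, and the other 2 PF libraries lay far above both. This gave a log2 ratio of -1.58 in AF (limma adjusted p = 0.283) and -2.14 in AF with MNA (adjusted p = 0.176), the lowest of any enzyme in that comparison. Without AF with MNA replicate 1 the latter was -2.82.

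Nsdhl, the sterol dehydrogenase that releases the oxidised methyl group as carbon dioxide (chrX:72918557-72958514, plus strand), had 27.1, 17.7 and 15.5 FPKM in PF, 6.78, 4.93 and 5.44 FPKM in AF, and 8.20, 11.4 and 1.76 FPKM in AF with MNA. The 3 AF libraries lay close together and all under the lowest PF library, while AF with MNA ranged more widely, from the lowest level of all 9 libraries in replicate 3 to the highest of the alcohol-fed ones in replicate 2. The log2 ratio was -1.81 in AF (limma adjusted p = 0.0677), with a fitted difference of -1.62 and a 95% interval of -2.17 to -1.07 on log2(FPKM + 1). In AF with MNA it was -1.49 (adjusted p = 0.301), and this call was lost without PF replicate 1 or PF replicate 2, at log2 ratios of -1.22 and -1.58. Its promoter window, shown because Nsdhl had the lowest p of the members in AF, held no sterol core and 4 CCAAT boxes, in capitals as CCAAT or, on the other strand, ATTGG.
Nsdhl promoter, chrX:72918271-72918570, plus strand: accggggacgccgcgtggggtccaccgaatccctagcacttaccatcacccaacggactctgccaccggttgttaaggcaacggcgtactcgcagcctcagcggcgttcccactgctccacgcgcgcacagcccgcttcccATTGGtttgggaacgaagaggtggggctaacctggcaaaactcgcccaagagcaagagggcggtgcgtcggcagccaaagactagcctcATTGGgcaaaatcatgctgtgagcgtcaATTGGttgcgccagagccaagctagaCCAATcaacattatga

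The 4 remaining members of this stretch with an entry did not pass in either comparison with PF in the main limma fit. Hsd17b7, a sterol ketone reductase, was at 9.21 ± 1.72 FPKM in PF, 8.16 ± 3.98 FPKM in AF and 6.60 ± 4.15 FPKM in AF with MNA, and AF replicate 2 held its highest level, 12.6 FPKM. Without AF with MNA replicate 2, Hsd17b7 fell in AF with MNA. Ebp, the sterol isomerase, had the highest mean level of the 18 enzymes in every group and nearly the same level in all, 44.6 ± 2.34 FPKM in PF, 43.9 ± 0.799 FPKM in AF and 44.4 ± 2.31 FPKM in AF with MNA. Its fitted difference from PF was -0.02 in AF (95% interval -0.30 to 0.26) and -0.0049 in AF with MNA (95% interval -0.25 to 0.24), so a 2-fold change lay outside both intervals. Sc5d, the desaturase that introduces a ring double bond, was at 28.0 ± 9.90 FPKM in PF, 23.5 ± 8.66 FPKM in AF and 23.3 ± 5.61 FPKM in AF with MNA. Dhcr7, which reduces the last intermediate of one branch to cholesterol, was at 14.3 ± 0.686 FPKM in PF, 14.3 ± 5.40 FPKM in AF and 10.8 ± 3.60 FPKM in AF with MNA, and its AF libraries (12.7, 9.97 and 20.4 FPKM) lay on both sides of the PF ones (14.7, 13.5 and 14.8 FPKM). The interval of the Dhcr7 difference in AF was -0.64 to 0.54.

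Tm7sf2, a sterol reductase of this stretch, has no row of its own. Its transcripts are part of a merged entry named Zfpl1 that also holds Vps51 and Gm28374, and that entry was at 9.16 ± 1.76 FPKM in PF, 7.53 ± 1.54 FPKM in AF and 7.59 ± 1.98 FPKM in AF with MNA. No value of Tm7sf2 alone could be taken from it.

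Enzyme levels differed between libraries of the same group. As the median over the 18 enzymes of the level relative to the mean of PF, PF replicates 1, 2 and 3 stood at 119%, 101% and 75.9%, AF replicates at 57.7%, 37.7% and 82.1%, and AF with MNA replicates at 63.8%, 68.5% and 31.4%. AF replicate 3 was the only alcohol-fed library above the lowest PF library on this measure. AF replicate 3 was the highest of the AF libraries in 14 of 18 enzymes, and AF replicate 2 the lowest in 14. AF with MNA replicate 3 had the lowest level of all 9 libraries in 13 enzymes, and PF replicate 1 the highest in 11. The number of enzymes below the lowest PF library was 12, 14 and 8 in the AF replicates and 11, 8 and 15 in the AF with MNA replicates. The enzymes share a library and are not independent of each other, so these counts describe the libraries.

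**Figure D2:**
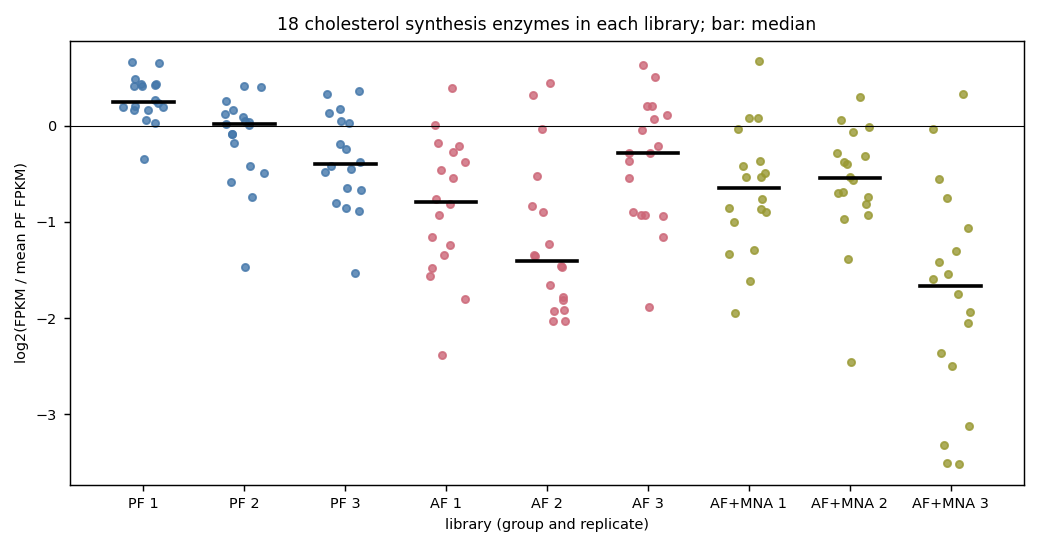
Level of each of the 18 enzymes relative to its mean in PF, as log2(FPKM / mean PF FPKM), in each of the 9 libraries. Each point is an enzyme and the bar is the median, which lies lowest in AF with MNA replicate 3 and AF replicate 2, and for AF replicate 3 lies above that of PF replicate 3.

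Of the 4 control genes of SREBP2, none passed both limits in either comparison with PF. Srebf2, which encodes SREBP2 and is its own target, had 14.5, 16.2 and 8.97 FPKM in PF, 10.2, 8.51 and 9.26 FPKM in AF, and 9.71, 10.2 and 9.53 FPKM in AF with MNA. PF replicates 1 and 2 lay above all other libraries and PF replicate 3 lay within the alcohol-fed range, so the groups overlapped. Srebf2 stood at a log2 ratio to PF of -0.50 in AF (limma adjusted p = 0.517) and -0.43 in AF with MNA (adjusted p = 0.511). Scap, the escort protein that senses sterol, had 12.9, 13.7 and 13.2 FPKM in PF, 10.9, 9.18 and 13.5 FPKM in AF, and 10.9, 11 and 9.19 FPKM in AF with MNA. In AF it overlapped PF through AF replicate 3, with a log2 ratio of -0.25 (limma adjusted p = 0.6). In AF with MNA all 3 libraries lay below PF, at -0.35 (adjusted p = 0.273), well inside the fold limit.

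The INSIG genes lay on opposite sides of PF. Insig1, an SREBP target that holds SCAP in the endoplasmic reticulum, had 59.9, 43.8 and 42.1 FPKM in PF, 18, 21.3 and 34.8 FPKM in AF, and 29.3, 42.4 and 25.4 FPKM in AF with MNA. All AF libraries lay below PF, with a log2 ratio of -0.98, just inside the fold limit (limma adjusted p = 0.263), and Insig1 passed when AF replicate 3, PF replicate 2 or PF replicate 3 was left out, at log2 ratios of -1.31, -1.05 and -1.07. In AF with MNA, replicate 2 at 42.4 FPKM overlapped PF, and the log2 ratio was -0.59 (adjusted p = 0.333).

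Insig2 shares the retention role, and its liver transcript is known to be held down by insulin rather than driven by SREBP2. It had 5.27, 5.78 and 6.42 FPKM in PF, 7.52, 20.9 and 8.13 FPKM in AF, and 6.82, 10.1 and 15.1 FPKM in AF with MNA. Every alcohol-fed library lay above every PF library, and most of the difference in the mean came from AF replicate 2 and AF with MNA replicate 3. Relative to PF the log2 ratio was 1.07 in AF, where the spread kept it short of the p limit (limma adjusted p = 0.456), and 0.87 in AF with MNA, where it was short of the fold limit (adjusted p = 0.305). Without AF replicate 1, Insig2 passed in AF at a log2 ratio of 1.32, and without AF with MNA replicate 1 it passed in AF with MNA at 1.11. Without AF replicate 2 the ratio in AF was 0.43, and without AF with MNA replicate 3 it was 0.54 in AF with MNA, neither past the fold limit.

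The level of Insig1 relative to Insig2, a ratio formed after the levels were seen and given without a test, was 11.4, 7.58 and 6.55 in PF. In AF it was 2.39, 1.02 and 4.28, and with MNA it was 4.29, 4.2 and 1.68. Both libraries with the lowest enzyme medians, AF replicate 2 and AF with MNA replicate 3, had the 2 highest levels of Insig2 and the 2 lowest ratios.

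**Figure D3:**
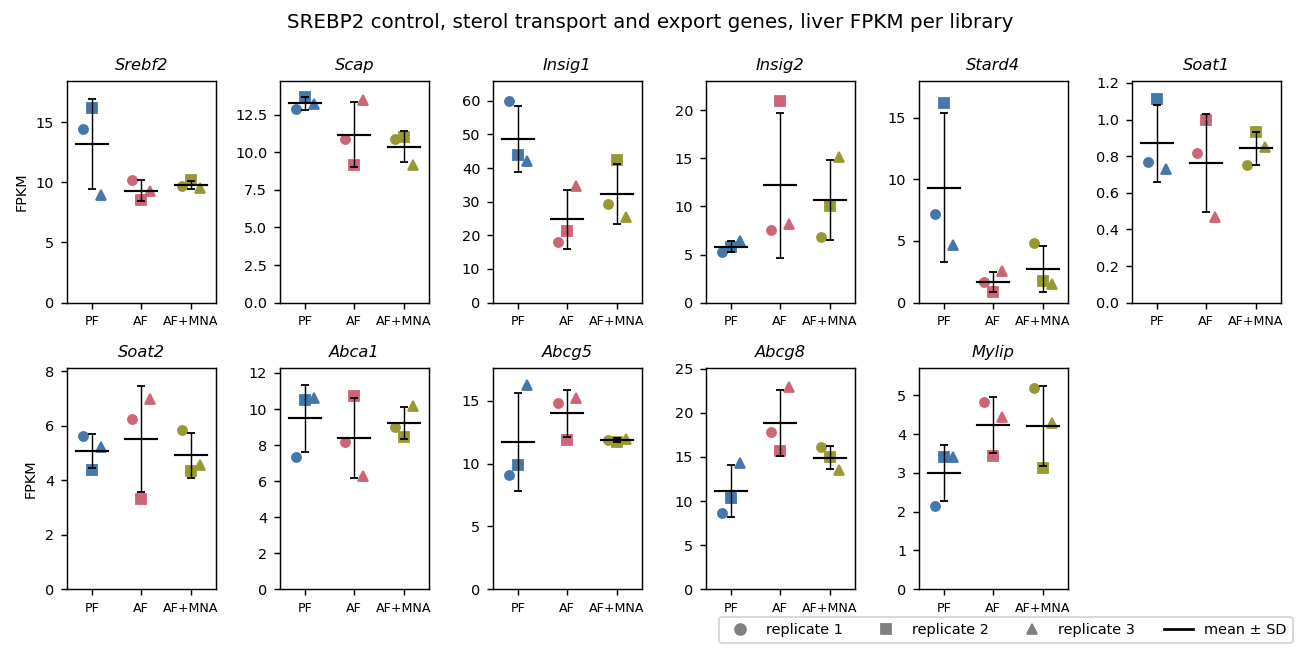
Level in FPKM (vertical axis, each panel with its own scale from 0) of the 11 control, transport, esterification and export genes in the 3 PF, 3 AF and 3 AF with MNA libraries, with marker shapes for the replicate number and bars for the mean ± SD. Insig1 and Stard4 sit lower and Insig2 and Abcg8 higher in AF than in PF, whereas Soat1, Soat2 and Abca1 overlap.

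Stard4 had the lowest AF to PF ratio of all members. It encodes a soluble sterol carrier that moves cholesterol between membranes and is known as an SREBP2 target. Its level was 7.15, 16.2 and 4.66 FPKM in PF, 1.65, 0.90 and 2.54 FPKM in AF, and 4.86, 1.77 and 1.55 FPKM in AF with MNA. The PF libraries spread more than 3-fold among themselves, driven by PF replicate 2, and all AF libraries lay below them, while AF with MNA replicate 1 at 4.86 FPKM overlapped PF replicate 3. Stard4 fell in AF, with a log2 ratio of -2.46 (limma adjusted p = 0.201) and a fitted difference of -1.83 on log2(FPKM + 1) with a 95% interval of -2.86 to -0.79. Without PF replicate 2 the log2 ratio in AF was -1.80, and the call held. In AF with MNA it fell by the same threshold, at -1.78 (adjusted p = 0.289), but that call was lost without PF replicate 1, PF replicate 2, AF with MNA replicate 2 or AF with MNA replicate 3, with log2 ratios of -1.93, -1.11, -1.54 and -1.49, and without AF with MNA replicate 1 the ratio was -2.49.

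The esterifying enzymes did not pass. Soat1, the form known from macrophages among other cells, was at 0.870 ± 0.209 FPKM in PF, 0.763 ± 0.270 FPKM in AF and 0.843 ± 0.0902 FPKM in AF with MNA. Soat2, the form that esterifies cholesterol in hepatocytes, was at 5.08 ± 0.626 FPKM in PF, 5.52 ± 1.94 FPKM in AF and 4.91 ± 0.819 FPKM in AF with MNA, and the 95% interval of its fitted AF difference from PF was -0.54 to 0.65.

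Of the exporters and LXR genes, no member passed both limits. Abca1, which loads cholesterol onto apolipoprotein A-I, was at 9.48 ± 1.86 FPKM in PF, 8.39 ± 2.23 FPKM in AF and 9.22 ± 0.877 FPKM in AF with MNA, with a 95% interval of its AF difference of -0.70 to 0.37. Abcg5 and Abcg8 are partner proteins that together secrete sterols into bile. Abcg5 was at 11.7 ± 3.90 FPKM in PF, 14.0 ± 1.84 FPKM in AF and 11.9 ± 0.146 FPKM in AF with MNA and overlapped between groups. Abcg8 had 8.64, 10.4 and 14.4 FPKM in PF, 17.9, 15.6 and 23.0 FPKM in AF, and 16.1, 15.0 and 13.5 FPKM in AF with MNA. All AF libraries lay above all PF libraries, the log2 ratio was 0.76 (limma adjusted p = 0.313), and in AF with MNA it was 0.42 (adjusted p = 0.385) with groups that overlapped.

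The ratio of Abcg8 to Abcg5, also formed after the levels were seen and not tested, was 0.951, 1.05 and 0.885 in PF. In AF it was 1.2, 1.31 and 1.51, and with MNA it was 1.36, 1.28 and 1.13. It was higher in every alcohol-fed library than in any PF library. The genes lie head to head on chromosome 17, and a RefSeq window at an Abcg8 start site shares 209 of its 300 bases with the window of Abcg5 on the other strand. The Abcg8 window is shown with the shared bases in capitals, because the partner genes have this stretch in common.
Abcg8 promoter, chr17:84682871-84683170, plus strand: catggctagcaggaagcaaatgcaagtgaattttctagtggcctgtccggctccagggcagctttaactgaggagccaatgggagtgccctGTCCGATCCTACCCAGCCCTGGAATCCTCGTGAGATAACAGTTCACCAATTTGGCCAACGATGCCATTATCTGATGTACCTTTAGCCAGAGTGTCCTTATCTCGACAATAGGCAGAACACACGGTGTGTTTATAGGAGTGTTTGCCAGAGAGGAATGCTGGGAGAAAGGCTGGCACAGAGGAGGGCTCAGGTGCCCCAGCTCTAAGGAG

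Mylip, an LXR target, encodes a ubiquitin ligase that marks lipoprotein receptors for degradation. It had 2.15, 3.42 and 3.40 FPKM in PF, 4.82, 3.44 and 4.43 FPKM in AF, and 5.19, 3.13 and 4.28 FPKM in AF with MNA. The lowest AF library lay just above the highest PF library, and AF with MNA replicate 2 lay within PF. As a log2 ratio to PF it was 0.50 in AF (limma adjusted p = 0.475) and 0.49 in AF with MNA (adjusted p = 0.471), and neither passed. Nr1h3, which encodes LXR alpha, appears under its own name only as 2 assembled transcripts inside introns, and its known transcripts belong to a merged entry with Madd. That entry held 5.68, 5.35 and 5.27 FPKM in PF, 4.63, 3.27 and 4.72 FPKM in AF and 4.63, 4.57 and 4.44 FPKM in AF with MNA, so all alcohol-fed libraries lay below PF, but the level cannot be assigned to Nr1h3.

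Between AF with MNA and AF, no member passed any of the limits in the limma fit of all 6 libraries. None of the 29 passed the threshold in limma against 1.98% of the 12214 genes tested, none had an unadjusted p under 0.05 against 5.22%, none had an adjusted p under 0.05 against 0.0491%, and none had groups without overlap against 10.1%. The lowest adjusted p was 0.961, for Abcg8. Under other settings with all 6 libraries, Abcg5 and Abcg8 were lower in AF with MNA. Both had an unadjusted p under 0.05 without moderation and with a library-size covariate (6.9% of the 29, background 2.93%), and both lay below AF without overlap when each library was scaled to the same median (background 5.31%). Without AF replicate 3 no member passed the threshold, where 1.1% of all genes fell and 1.93% rose, but 2, Acat2 and Insig1, were higher in AF with MNA at an unadjusted p under 0.05 (background 4.95%) and 2 were higher without overlap (background 15.1%), and none had an adjusted p under 0.05 (background 0.0495%). Without AF with MNA replicate 1 no member passed the threshold in limma, where 1.47% of all genes fell and 1.22% rose, and none had an unadjusted p under 0.05 (background 2.82% lower and 3.0% higher) or an adjusted p under 0.05 (background 0.0575%), and 2 were lower without overlap (6.9%, background 10.7%). Abcg5 and Abcg8 were lower at an unadjusted p under 0.05 when AF replicate 2 was left out (6.9%, background 3.42%), and Nsdhl was higher when AF with MNA replicate 3 was (background 1.82%). The median log2 ratio of AF with MNA to AF was -0.11 over the members and 0.01 over all genes. The intervals were wide, and the data do not show that the groups were alike. The fitted difference on log2(FPKM + 1) was 0.40 for Insig1 (95% interval -0.31 to 1.10), 0.26 for Acat2 (-0.35 to 0.88), 0.41 for Stard4 (-0.50 to 1.31) and -0.30 for Abcg8 (-0.71 to 0.10). For Nsdhl the interval was -1.26 to 1.32, and for Idi1, the widest, -2.10 to 1.07, each spanning more than a 2-fold difference in both directions. No member's interval excluded 0.

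Compared with PF, AF with MNA showed 6 members that fell and none that rose. They were Hmgcs1, Mvd, Fdps, Msmo1, Nsdhl and Stard4, 20.7% of the 29, against 1.95% of the 12276 genes tested that fell, and 0 members rose against 1.94%. Without limma's moderation and with a library-size covariate 1 call was left, Mvd (3.45%, background 0.978%). At an unadjusted p under 0.05, 10 (34.5%) were lower against 7.94% of all genes and 1 (3.45%), Insig2, was higher against 6.52%. In limma 0 members had an adjusted p under 0.05, against 0.432% of all genes. Without overlap between groups 8 members (27.6%) were lower against 11.9% and 1 (3.45%) was higher against 9.54%. The median log2 ratio was -0.82 over the 18 enzymes, -0.04 over the 11 others and -0.02 over all genes. The count moved with single libraries, and the share of all genes that fell is given beside it. It was 2 (Msmo1 and Mvd, 6.9%, background 1.92%) without PF replicate 1, 3 (with Hmgcs1, 10.3%, background 1.99%) without PF replicate 2 and 4 (13.8%, background 2.24%) without AF with MNA replicate 3. It was 9 (31%) without PF replicate 3 (background 1.74%) and 9 without AF with MNA replicate 2 (background 2.03%). Without AF with MNA replicate 1, a library with much intron signal, 7 fell (24.1%, background 2.44%), Fdft1 beside the same 6, and 1 rose, Insig2 (background 2.01%). In that fit 10 members (34.5%) were lower at an unadjusted p under 0.05 against 7.99% of all genes and 1 higher against 5.48%, while 10 (34.5%) lay below PF without overlap against 19.0% and 1 above against 14.7%. None had an adjusted p under 0.05 in limma, against 0.384% of all genes. The PF libraries are the same as in the comparison of AF with PF, and the AF libraries are shared by the remaining pair of comparisons, so the lists of members are not independent of each other.

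**Figure D4:**
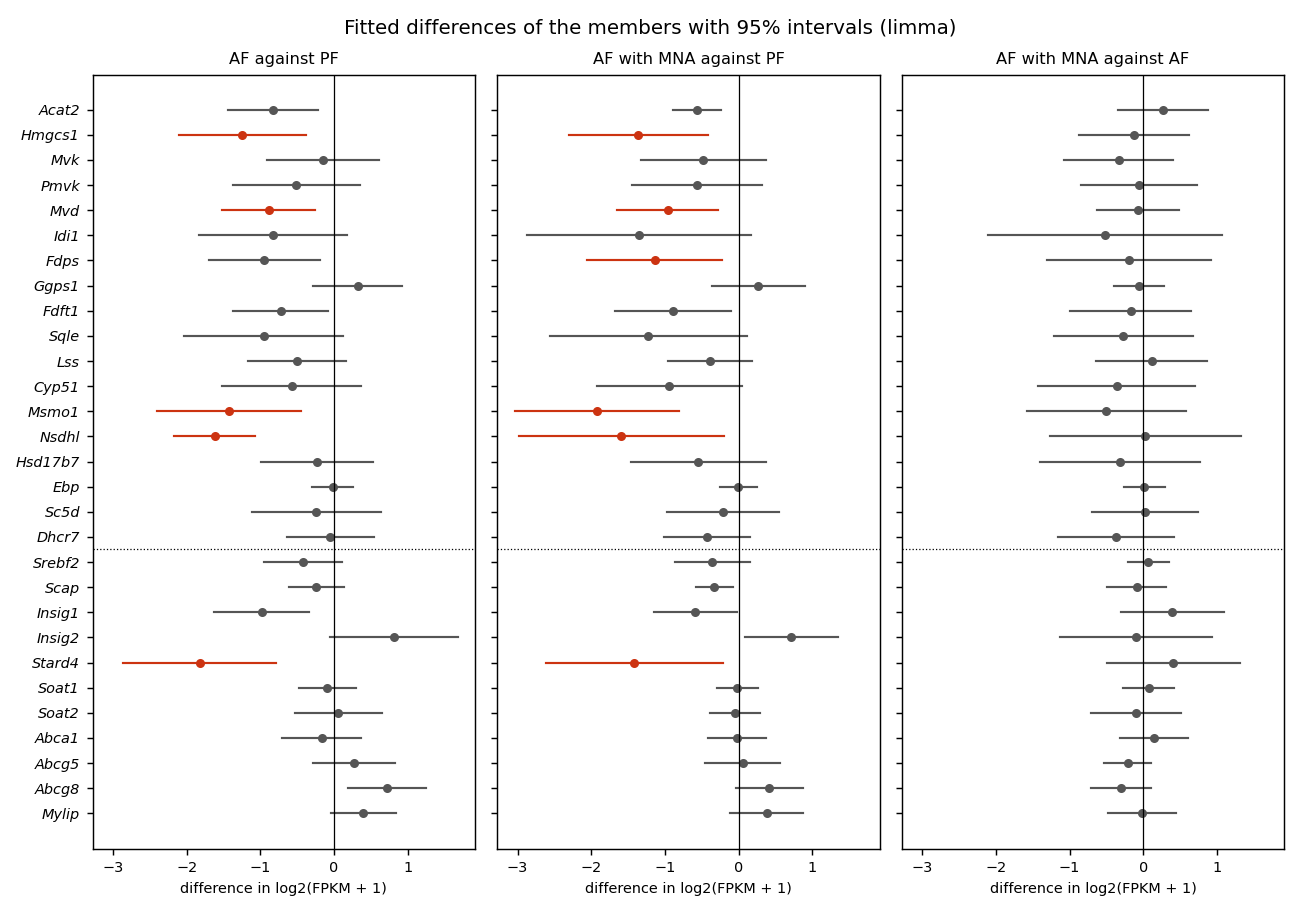
Fitted difference of each of the 29 members on log2(FPKM + 1), horizontal axis, with its 95% interval from limma, with a panel for each pair of groups (AF and PF, AF with MNA and PF, AF with MNA and AF). Enzymes are above the dotted line in pathway order and the other members below it, and red marks members past the threshold, 5, 6 and 0 in the panels from left to right.

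Genes around the pathway were read from 6 further lists. None of the 10 tested genes of SREBP processing and INSIG turnover, the 5 LXR partners and targets, the 12 genes of isoprenoid branches or the 3 mitochondrial ketone body enzymes passed the threshold in AF against PF, and their median log2 ratios were -0.02, 0.04, 0.04 and -0.44. Among the 12 tested genes of lipoprotein uptake and sterol handling, 1 fell, Scp2, a sterol carrier of peroxisomes and cytosol, and none rose, against 2.35% and 1.95% of all genes. Its level was 131.6, 146.5 and 110.4 FPKM in PF, 51.5, 67.1 and 52.9 FPKM in AF and 52.5, 91.5 and 98.0 FPKM in AF with MNA. All alcohol-fed libraries lay below PF, with a log2 ratio of -1.18 in AF (limma adjusted p = 0.0798) and -0.68 in AF with MNA (adjusted p = 0.305), the second inside the fold limit.

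Among the 4 tested genes of sterol oxidation to oxysterols and bile acids, 1 fell and 1 rose in both comparisons with PF, where 2.35% and 1.95% of all genes fell and rose in AF and, with MNA added, 1.95% and 1.94% did. With lists this short a single gene is a large share, so these counts are a description. Cyp7a1, the rate-setting enzyme of bile acid synthesis, had 24.5, 65.9 and 26.0 FPKM in PF, 10.1, 1.13 and 4.94 FPKM in AF and 15.3, 8.26 and 3.57 FPKM in AF with MNA. No alcohol-fed library reached PF, and the log2 ratio was -2.85 in AF (limma adjusted p = 0.198) and -2.10 in AF with MNA (adjusted p = 0.228). Leaving out 1 library gave -3.68 to -2.23 in AF and -2.71 to -1.48 in AF with MNA, and Cyp7a1 passed in all of these fits but in neither comparison with the library-size covariate and no moderation. Cyp39a1, which hydroxylates oxysterols on the way to bile acids, had 10.6, 7.57 and 11.7 FPKM in PF, 41.5, 27.4 and 25.1 FPKM in AF and 38.4, 20.8 and 31.4 FPKM in AF with MNA. All alcohol-fed libraries lay above PF, with log2 ratios of 1.65 (limma adjusted p = 0.0828) and 1.60 (adjusted p = 0.107). Between AF with MNA and AF none of the genes of the 6 lists passed the threshold or had an unadjusted p under 0.05 in limma. Without AF replicate 3 the list genes that passed in AF against PF were the same 3. Without AF with MNA replicate 1, Srebf1 also fell against PF and Nus1 fell against AF, and no other list gene changed its call without either library. When other libraries were left out, Syvn1, the ubiquitin ligase also known as HRD1, fell in AF without PF replicate 3 or AF replicate 1 and in AF with MNA without PF replicate 3. Vldlr, a lipoprotein receptor, was under the level filter in both comparisons with PF, at 0.16, 0.09 and 0.26 FPKM in PF, 1.00, 0.36 and 0.47 FPKM in AF and 1.07, 0.53 and 0.55 FPKM in AF with MNA. All its alcohol-fed libraries lay above PF, and it rose in both comparisons when no filter was set and in AF with MNA without PF replicate 1 or PF replicate 2. Nceh1, a cholesteryl ester hydrolase, rose in both comparisons with PF when entries of the same name were summed, and under no other alternative run. Pltp, Srebf1, Nus1, Syvn1, Vldlr and Nceh1 were named after their values were seen.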

How the data were processed

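Total RNA of liver was depleted of ribosomal RNA and made into strand-specific libraries. The authors' gene and lncRNA levels are FPKM from StringTie, with transcripts merged across libraries, and the submitters' processing notes name cutadapt 1.9, FastQC, HISAT2, TopHat, StringTie 1.3.4 and edgeR without saying which step used which. The genome build is not given in the sources used here. Of 7879 known lncRNA transcripts, 7841 were found in GENCODE M21 (GRCm38), 7708 with the same position. The deposited lncRNA table also gives a read coverage signal per transcript, used for depth, and the deposited circRNA table gives the count of back-splice junction reads. No comparison columns of the authors were used.

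Entries with a known transcript and a name whose mean over the 6 libraries reached 0.5 FPKM were tested as log2(FPKM + 1) in limma 3.58.1 (R 4.3.3) using lmFit and a trended eBayes, two-sided, with Benjamini-Hochberg adjustment over all of them. The fit was run on simulated data with independent noise and changes planted only in genes of higher level. That run does not cover low-level members such as Mvd or shifts shared by many genes of a library. An exact permutation test of 3 against 3 libraries cannot go below 0.1. Nothing states how mice map to libraries beyond a replicate number, so p-values measure the spread between these libraries. Where several entries share a name, the known entry with the highest mean was used. Alternatives were a pseudocount of 0.1, median scaling, no filter or 2 FPKM, no trend, all 9 libraries, a replicate block, the fitted coefficient as fold change, an unmoderated model with a library-size covariate, summed entries, other call rules and each library left out. Values in each library were given for members past the threshold, with an unadjusted p under 0.05 or without overlap in at least 1 comparison, and for Srebf2, Scap and Sqle. Genes of the 6 further lists were named where they passed the threshold, and 5 more, chosen after their values were seen, because they passed under an alternative. Pltp was also chosen after its values were seen, for its low unadjusted p in AF against PF. The members, lists and markers were chosen with earlier results of these data known. Promoters were read from RefSeq.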

Additional observations from a re-analysis of the deposited data

Results flagged for a closer look

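Entries made only of assembled transcripts, which no comparison used, carried names of 4 members, and at 2 of these an entry was listed at 0 throughout PF and above 0 in the alcohol-fed groups. An assembled entry under the name Ebp was listed at 0 throughout PF, with a mean of 0.677 FPKM in AF (1.63, 0.40 and 0 FPKM) and 0.673 FPKM in AF with MNA (0.48, 0.71 and 0.83 FPKM). An assembled entry under the name Soat1 was likewise listed at 0 in PF and had a mean of 0.407 FPKM in AF (0.63, 0.22 and 0.37 FPKM) and 0.487 FPKM in AF with MNA, the latter from replicate 1 alone at 1.46 FPKM. The 3 other assembled entries did not have this pattern. Of those under the name Nr1h3, MSTRG.24677 had 0.34, 0 and 1.49 FPKM in PF, 0 in AF and 0.28, 0 and 0 FPKM in AF with MNA, and MSTRG.24679 had a mean of 0.64 FPKM in PF, 0.117 FPKM in AF and 0.397 FPKM in AF with MNA. The entry under the name Mylip had means of 1.87, 1.57 and 1.76 FPKM. Circular RNAs of Cyp51 had 4 junction reads in AF with MNA, 1 in replicate 2 and 3 in replicate 3, and 0 in PF and AF. No test was run on these low values.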

How the results depend on the processing

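The number of members past the threshold was 5 in AF against PF, 0 in AF with MNA against AF and 6 in AF with MNA against PF. It was 1 (Nsdhl) and 1 (Mvd) in the comparisons with PF under a model without moderation and with a library-size covariate, where 1.42% and 0.978% of all genes fell, 0 in each with an adjusted p under 0.05 as the rule, and 10 and 11 with an unadjusted p alone. Leaving out 1 library in turn gave 4 to 11 members in AF against PF, 0 in all fits of AF with MNA against AF, and 2 to 9 in AF with MNA against PF. Deviations from the group mean correlated at -0.04, 0.03 and 0.02 between same-numbered PF and AF libraries, and at -0.08 to 0.06 between other-numbered ones. Such values cannot show whether the numbers pair the mice. With the number as a replicate block the counts were 5, 0 and 8, the last adding Idi1 and Sqle. With the block 2.46% and 2.03% of all genes fell in the comparisons with PF. Mvd missed the fold limit in both comparisons with PF when the fitted coefficient served as the fold change, and Sqle passed in AF with MNA against PF when all 9 libraries were in the fit. Of 734 values of 46 log2 ratios under the alternatives, 733 kept their direction and 686 their side of the threshold. The ratio of group means cannot change where an alternative alters only the pseudocount, the filter or the model. Most of the 46 were also picked by their p or size in these data. The count of kept directions was therefore largely fixed in advance and is little measure of stability. The ratio of Stard4 between AF with MNA and AF ranged from -0.0315 to 1.10 when 1 library was left out. A further 47 member results, given in the text by level or interval, included 32 that changed sign under at least 1 alternative and 1 that passed, Hsd17b7 in AF with MNA against PF without AF with MNA replicate 2. With no counts for genes, precision was judged from the spread between 3 libraries a group.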

Other observations

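Circular RNAs, measured by reads across back-splice junctions, were listed for 11 of the 31 members, 19 circRNAs in all. Their junction reads summed to 13, 4 and 9 in the PF libraries, 3, 1 and 1 in the AF libraries and 0, 11 and 8 in those with MNA, of 1588 to 2545 junction reads in a library. Abca1 held 12, 3 and 12 of the reads of the 3 groups. The most reads of a circRNA in any library was 3, and 13 of the 19 were seen in a single library.

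Known and assembled lncRNA transcripts, 6 in all, overlap 5 members. On the strand opposite Scap, 5830462I19Rik was at 3.76 ± 0.380 FPKM in PF, 3.30 ± 0.971 FPKM in AF and 3.36 ± 0.103 FPKM in AF with MNA (SD, n = 3). Opposite Insig2, Gm37174 was listed at 0 in 6 of the 9 libraries and at 3.15 FPKM in PF replicate 3, 1.76 FPKM in AF replicate 2 and 0.888 FPKM in AF with MNA replicate 3. Opposite Lss, 4930483K19Rik had 0.301, 0.417 and 0.291 FPKM in PF, 0.247, 0.118 and 0.183 FPKM in AF and 0.130, 0.405 and 0.163 FPKM in AF with MNA. Gm37648, opposite Soat1, stayed between 0.0806 and 0.273 FPKM in all libraries. Whether gene levels were counted by strand is not given in the sources used here.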
